A study of Mus musculus with 9 samples.

Results

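Proliferation genes were followed in perigonadal white adipose tissue, the fat depot beside the gonads, of mice aged 4 months. They are a set of 10 genes (Mki67, Top2a, Ccnb1, Ccna2, Ccnd1, Cdk1, Mcm2, Mcm5, Pcna and Rrm2), represented by every exon array probe set that carries the gene's symbol and no other. Of these, 7 had probe sets under their current symbol. Cdk1 was annotated under its older name Cdc2a and was included through that synonym. Ccnb1 and Rrm2 were not analysed here. The 8 genes with values had 123 of 229581 probe sets and stood among 16299 genes in all.

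The arrays came from 3 groups of 3: wild-type mice (WT), Lmna G609G/G609G mice (G609G) and Lmna LCS/LCS mice (LCS), both mutants being homozygous. The gene Lmna gives rise to lamin A and lamin C, which line the inner face of the nucleus. From the progeria allele G609G a shortened lamin A, progerin, is made, while the LCS allele gives lamin C and no lamin A. Both are germline alleles, so that all cell types of the depot carry them. The labels speak of biological replicates without tying each array to its own animal, so the p-values measure the spread between the samples at hand, and that spread may be technical.

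A dividing cell passes from G1, when cyclin D with its kinases inactivates the retinoblastoma protein, into S phase, when the genome is copied, and then through G2 into mitosis, which needs cyclin A and cyclin B bound to CDK1. The transcripts of most replication and mitosis genes rise and fall with this cycle, because the retinoblastoma family, the E2F factors and the DREAM complex hold their promoters silent in resting cells. Mature adipocytes do not divide. Dividing cells in adipose tissue are known to be mainly adipocyte progenitors, macrophages and endothelial cells. In a tissue sample, fewer cells of a type and less RNA per cell cannot be told apart.

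Deposited array medians averaged 7.21 on the log2 scale for WT and 7.23 for LCS, and 6.57 for G609G. The median log2 difference over all genes was -0.29 in G609G minus WT and 0.03 in LCS minus WT. Differences involving G609G are therefore given on the deposited scale and after an offset shared by the genes of an array was taken off (relative to the median gene), an offset of -0.28 against WT and of -0.29 against LCS. This shift was not even across levels. With all genes ranked by their mean over the arrays and divided into 4 equal parts, the deposited median difference in G609G minus WT was 0.06 among the dimmest genes, then -0.35, -0.55 and -0.44. Top2a and Mki67 lay among the dimmest genes, Mcm2, Mcm5, Ccna2 and Cdk1 in the next part, and Ccnd1 and Pcna among the brightest. The 12 mature adipocyte markers were all above the level of 4.86, the 25th percentile of gene means, in WT and LCS, and 11 of 12 in G609G. The gene value of Lmna, which does not read either allele, had a difference of -0.60 (SE 0.09, limma adjusted p = 0.000122) in G609G minus WT and 0.09 (SE 0.09, adjusted p = 0.556) in LCS minus WT.

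In G609G fat 7 of the 8 proliferation genes were lower than in WT as deposited, with log2 differences from -1.35 (Ccnd1) to -0.45 (Mcm5), and Pcna did not pass the test. In LCS fat 2 of the 8 were higher, Ccna2 by 0.93 and Ccnd1 by 0.28. Among all genes, 54.8% passed the limma test as lower and 13% as higher in G609G minus WT, and 11.2% and 15.7% in LCS minus WT (12.3% and 16.6% relative to the median gene). Relative to the median gene, 5 of the 8 were lower in G609G than in WT and Pcna was higher, where 36.4% of all genes were lower and 32.3% higher. The same counts, 5 lower and 1 higher, came from scaling to the median of the genes that pass a filter on low values. The shares of all genes were not worked out on that scale. The 8 genes had a median log2 difference of -0.74 on the deposited scale and -0.46 relative to the median gene in G609G minus WT, against -0.29 and -0.01 for all genes. In LCS minus WT their median was 0.20, against 0.03 for all genes.

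The arrays of a pair of groups did not overlap for 6 of the 8 genes in G609G minus WT, all lower, where 55.7% of all genes were separated downwards and 13.8% upwards. Once set relative to the median gene, 5 were separated downwards and 1 upwards, against 37% and 33.5% of all genes. In LCS against WT 4 genes (Ccnd1, Ccna2, Cdk1 and Mki67) were separated upwards and Pcna downwards, where 25.8% and 18.3% of all genes were, or 27.1% and 20.3% relative to the median gene. Of the 8 genes, 6 had a mean above 4.86 with at least 3 probe sets. Top2a and Mki67 lay below it, and for dim genes a deposited fold may understate the change.

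**Figure D1:**
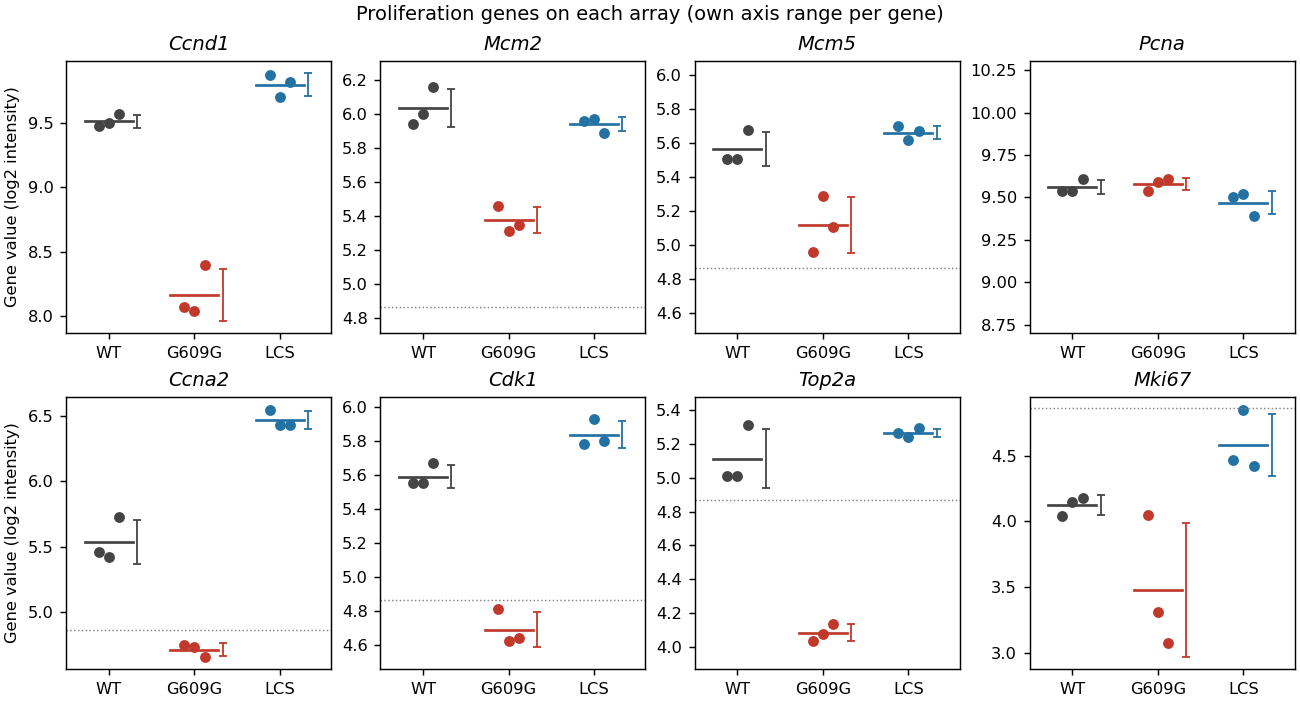
Gene value (log2 intensity, median polish over the gene's probe sets) of each proliferation gene on each of the 9 arrays, by group; points are arrays, horizontal lines are group means, bars are SD over 3 arrays, and the dotted line, drawn where it falls in the range shown and left out for Ccnd1 and Pcna, is the 25th percentile of gene means (4.86). The G609G arrays lie below all WT arrays for 6 of the 8 genes, and the LCS arrays lie highest for Ccna2.

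Ccnd1 encodes cyclin D1, the partner of CDK4 and CDK6 that links growth factor signals to entry into the cycle. Its gene value was 9.48, 9.50 and 9.57 in WT replicates 1 to 3, 8.07, 8.04 and 8.40 in G609G, and 9.87, 9.70 and 9.82 in LCS. None of the groups overlapped, with G609G lowest and LCS highest. Ccnd1 was lower in G609G than in WT by a log2 difference of -1.35 (95% interval -1.55 to -1.15, adjusted p = 1.33e-07), and by -1.06 (adjusted p = 7.34e-07) relative to the median gene. It was higher in LCS than in WT by 0.28 (95% interval 0.08 to 0.48, adjusted p = 0.0379). This last call was lost without WT replicate 1, 2 or 3 or LCS replicate 1 or 3, with adjusted p from 0.0577 to 0.134, and with eBayes fitted without a trend (adjusted p = 0.0646).

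Its probe sets went the same way. All 6 were called lower in G609G than in WT, with deposited differences from -1.72 to -1.19, where 41.2% of all probe sets were called lower. Against WT the LCS differences of all 6 were positive, from 0.25 to 0.40, and 1 was called.

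Mcm2 and Mcm5 encode subunits of the MCM helicase, which is loaded on origins in G1 and unwinds DNA in S phase. Mcm2 was at 5.94, 6.0 and 6.16 in WT, 5.46, 5.31 and 5.35 in G609G, and 5.96, 5.97 and 5.89 in LCS. The G609G arrays lay below all others, while WT and LCS overlapped. In G609G minus WT the difference was -0.66 (SE 0.09, adjusted p = 4.31e-05), and -0.38 (adjusted p = 0.00243) relative to the median gene.

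Mcm5 was at 5.51, 5.51 and 5.68 in WT, 4.96, 5.29 and 5.11 in G609G, and 5.70, 5.62 and 5.67 in LCS. Its G609G arrays were again the lowest, with WT and LCS overlapping. The difference of -0.45 (SE 0.10, adjusted p = 0.00203) in G609G minus WT passed the test as deposited. Relative to the median gene it was -0.16 (95% interval -0.37 to 0.05, adjusted p = 0.154), and relative to the median of genes passing the filter on low values it was 0.0021 (adjusted p = 0.986), so the Mcm5 call rests on the scaling. Between LCS and WT neither helicase subunit passed: the intervals ran from -0.29 to 0.10 for Mcm2 and from -0.12 to 0.32 for Mcm5.

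Within these genes the probe sets differed. Of 18 Mcm2 probe sets all were negative in G609G minus WT and 10 were called lower. Of 19 Mcm5 probe sets 17 were negative and 5 were called lower. Among all probe sets 41.2% were called lower, and Mcm5 lay below that share. Relative to the median gene 4 Mcm2 and 3 Mcm5 probe sets were called lower, both below the 26.7% of all probe sets. None was called higher in either gene. A single Mcm2 probe set (4371113) was called lower in LCS than in WT, at 5.33 against 6.66 in WT, while its G609G mean was 5.31. The other 17 Mcm2 probe sets were not called in that comparison.

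Pcna encodes the sliding clamp that holds DNA polymerases on the template during replication and repair. It was at 9.54, 9.54 and 9.61 in WT, 9.54, 9.59 and 9.61 in G609G, and 9.50, 9.52 and 9.39 in LCS. WT and G609G overlapped throughout, and the LCS arrays lay below all of them by a small margin. The deposited difference in G609G minus WT was 0.02 (95% interval -0.09 to 0.13, adjusted p = 0.782). Pcna was 0.30 higher relative to the median gene (95% interval 0.21 to 0.40, adjusted p = 0.000102), the only member with that direction. The LCS difference from WT was -0.09 (95% interval -0.20 to 0.02, adjusted p = 0.211). It became larger and was called without G609G replicate 1, 2 or 3 (-0.22, -0.26 and -0.18, adjusted p = 0.00811, 0.004 and 0.0105), with the median polish run anew over 8 arrays. It was also called without LCS replicate 1 (-0.23, adjusted p = 0.0205) or 3 (-0.20, adjusted p = 0.0338), after quantile normalization (-0.31, adjusted p = 0.000705) and relative to the genes passing the filter (-0.12, adjusted p = 0.0439).

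The 15 Pcna probe sets disagreed with each other. Against WT 4 were called lower and 5 higher in G609G, with differences from -1.35 to 0.58. Of all probe sets 41.2% were called lower and 7.76% higher there. Between LCS and WT 6 were called lower, led by probe set 4798853 (9.34 in WT, 9.50 in G609G and 8.41 in LCS) and probe set 5248653 (9.18, 9.54 and 8.41), and 2 were called higher. Among all probe sets 5.44% were called lower and 5.71% higher in that comparison. The gene value changed with the summary accordingly. With a plain mean of probe sets it was -0.26 in LCS minus WT (adjusted p = 0.00725), and over probe sets above the 25th percentile it was -0.26 (adjusted p = 0.00551) in LCS minus WT and -0.17 (adjusted p = 0.0228) in G609G minus WT. Pcna is known to have processed pseudogene copies, so signal from near-identical sequence cannot be separated here.

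Ccna2 encodes cyclin A2, which activates CDK2 in S phase and CDK1 on the way into mitosis. It was at 5.46, 5.42 and 5.73 in WT, 4.75, 4.73 and 4.66 in G609G, and 6.55, 6.43 and 6.43 in LCS. The 3 groups were fully separated, with LCS highest. The difference was -0.82 (95% interval -1.04 to -0.61, adjusted p = 1.72e-05) in G609G minus WT and -0.54 (adjusted p = 0.000399) relative to the median gene. Against WT the LCS level was higher by 0.93 (95% interval 0.72 to 1.15, adjusted p = 3.04e-05), or 1.91-fold, and 99.5% of all genes had a difference no larger than this.

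All 13 Ccna2 probe sets were negative in G609G minus WT and 8 were called lower, against 41.2% of all probe sets. Relative to the median gene 3 were called lower, against 26.7% of all probe sets. The LCS differences from WT were positive for all 13, from 0.00 to 1.23, and 6 were called higher, against 5.71% of all probe sets. The LCS differences of the other 7 were not called. Among these, 4998072 and 5300472 were at 8.04 in WT and at 8.12 and 8.04 in LCS, with differences of 0.08 (adjusted p = 0.887) and 0.00 (adjusted p = 0.997), and both were called lower in G609G minus LCS. Probe set 4486322, dim in all groups, was at 0.16 (adjusted p = 0.822). For 4415880, in contrast, the means were 6.96 in WT, 6.39 in G609G and 8.12 in LCS. The positions of these probe sets in the transcript were not used here.

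Promoters were not used in choosing the members, and 4 upstream regions are shown: those of Top2a, Cdk1 and Mki67, mitosis genes that were lower in G609G as deposited, and that of Pcna, which was not. The sequences are RefSeq's for GRCm38.p6, a different build from the mm9 named in the submitters' processing notes, and run over the 150 bases before the annotated start, 5′ to 3′ on the gene's strand. Capitals mark the matches on either strand to the cell cycle homology region (CHR, TTTGAA), the CCAAT box (CCAAT) and the E2F site (TTTCCCGC, TTTCGCGC, TTTGCCGC or TTTGGCGC). Ccna2 and Ccnd1 had no entry.
Top2a (chr11:99024190-99024339, minus strand): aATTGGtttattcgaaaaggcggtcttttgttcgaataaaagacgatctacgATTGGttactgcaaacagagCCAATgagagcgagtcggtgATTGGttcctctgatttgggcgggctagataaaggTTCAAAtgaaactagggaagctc
Cdk1 (chr10:69352913-69353062, minus strand): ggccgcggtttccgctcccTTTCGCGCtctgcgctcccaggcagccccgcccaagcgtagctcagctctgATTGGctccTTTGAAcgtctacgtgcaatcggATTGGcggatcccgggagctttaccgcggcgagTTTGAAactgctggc
Mki67 (chr7:135716380-135716529, minus strand): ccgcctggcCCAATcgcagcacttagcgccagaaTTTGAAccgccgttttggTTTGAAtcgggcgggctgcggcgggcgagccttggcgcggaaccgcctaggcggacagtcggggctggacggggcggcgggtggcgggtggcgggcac
Pcna (chr2:132253181-132253330, minus strand): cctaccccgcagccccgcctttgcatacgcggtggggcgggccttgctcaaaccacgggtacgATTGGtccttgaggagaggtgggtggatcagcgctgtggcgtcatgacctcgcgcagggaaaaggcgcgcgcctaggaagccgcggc

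The CHR is known as the element through which DREAM silences G2 and mitosis genes. In the 300 bases from 250 before to 50 after the start, 8 of the 10 listed genes had a promoter entry, and Top2a, Cdk1, Mki67 and Mcm2 held the CHR, as did 17.9% of 32851 promoters. All 8 held a CCAAT box, as did 37.4% of all promoters. Both together stood in those 4 genes and in 6.95% of all promoters. Cdk1 and Mcm5 held an E2F match, found in 2.26%, and in Mcm5 it was a pair of overlapping matches on opposite strands. The CHR variant TTTAAA was found in Mcm5, Rrm2 and Ccnb1 and in 13.2% of all promoters. In Top2a a CHR began 23 bases before the start on the opposite strand and another 179 bases before it on the gene's strand. The latter lay outside the 150 bases shown. In Cdk1 CHRs began 15 and 71 bases before the start, and in Mki67 98 and 116 bases before it. Pcna held a CCAAT box and neither the CHR nor the E2F letters in this window. These matches describe the letters and not the binding of any factor.

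Cdk1 encodes the kinase that drives mitosis with cyclins A and B. It was at 5.55, 5.55 and 5.67 in WT, 4.81, 4.62 and 4.64 in G609G, and 5.78, 5.93 and 5.80 in LCS, with no overlap between the groups. In G609G minus WT the difference was -0.90 (95% interval -1.10 to -0.71, adjusted p = 3.52e-06), and -0.62 (adjusted p = 0.000124) relative to the median gene. The LCS difference from WT was 0.25 (95% interval 0.05 to 0.44) and missed the threshold (adjusted p = 0.0647). It passed there with eBayes without a trend (adjusted p = 0.0351), with only the 6 arrays compared (adjusted p = 0.0445) and without LCS replicate 1 (adjusted p = 0.0352). Of 10 probe sets 7 were called lower in G609G minus WT, down to -1.97 for 5275259, against 41.2% of all probe sets. Relative to the median gene 5 were called lower, against 26.7% of all probe sets. None was called in LCS minus WT.

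Top2a encodes topoisomerase II alpha, which untangles sister chromosomes before they part. It was at 5.01, 5.01 and 5.31 in WT, 4.04, 4.08 and 4.14 in G609G, and 5.26, 5.24 and 5.29 in LCS. The G609G arrays lay about a unit of log2 below the others, and WT replicate 3 lay above the LCS arrays. The difference was -1.02 (95% interval -1.23 to -0.81, adjusted p = 2.23e-06) in G609G minus WT and -0.74 (adjusted p = 2.83e-05) relative to the median gene. The LCS difference from WT was 0.15 (95% interval -0.06 to 0.36, adjusted p = 0.295).

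With 37 probe sets Top2a was the most densely measured member. Of these, 36 were negative in G609G minus WT and 25 were called lower, against 41.2% of all probe sets. Relative to the median gene 21 were called lower, against 26.7% of all probe sets. The 16 brighter ones, above the 25th percentile of probe sets, included those with the widest differences: 4925312 fell from 6.60 to 3.87, 5362325 from 8.33 to 5.66 and 5122506 from 7.35 to 4.74. Probe set 5045479 alone was positive, at 8.07 against 7.59 in WT (adjusted p = 0.0603). Over the brighter probe sets only, the gene difference was -1.39 in place of -1.02. These were picked by their mean over the arrays of all groups, so a probe set dim in G609G could pass through WT and LCS. Of those named, 4925312 and 5122506 were under the cut of 5.01 in G609G. This choice can itself favour wider falls, so the -1.39 is not a cleaner estimate than the -1.02. None of the 37 was called in LCS minus WT.

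Mki67 encodes Ki-67, the protein that coats mitotic chromosomes and is widely stained to mark dividing cells. It was at 4.04, 4.15 and 4.18 in WT, 4.05, 3.31 and 3.08 in G609G, and 4.47, 4.85 and 4.42 in LCS. G609G replicate 1 lay within the WT range and its other arrays below it, and all LCS arrays lay above WT. It had 5 probe sets, none above the 25th percentile of probe sets (5.01), and the SE of its differences was 0.21, against 0.10 or less for the other members. The difference of -0.64 (95% interval -1.10 to -0.18, adjusted p = 0.0171) in G609G minus WT passed as deposited. After setting relative to the median gene it was -0.36 (95% interval -0.84 to 0.12, adjusted p = 0.161). Leaving out 1 array, with the median polish run anew, moved the deposited difference to between -1.22 and -0.44. The first was without G609G replicate 1 and the second without LCS replicate 1 (adjusted p = 0.0456).

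Against WT the LCS value of Mki67 differed by 0.46 (95% interval -0.0021 to 0.92) and missed the threshold (adjusted p = 0.141). It passed with a plain mean of probe sets (adjusted p = 0.0186), with only the 6 arrays compared (adjusted p = 0.0158), and without WT replicate 3, G609G replicate 1 or any LCS replicate (adjusted p from 0.0227 to 0.0461). Probe set 4338740 was at 5.47 in WT, 3.65 in G609G and 5.70 in LCS, and 4310542 at 4.51, 3.85 and 5.62. The remaining 3 were dimmer than 4 on average over the arrays, and 2 of them differed little between groups.

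**Figure D2:**
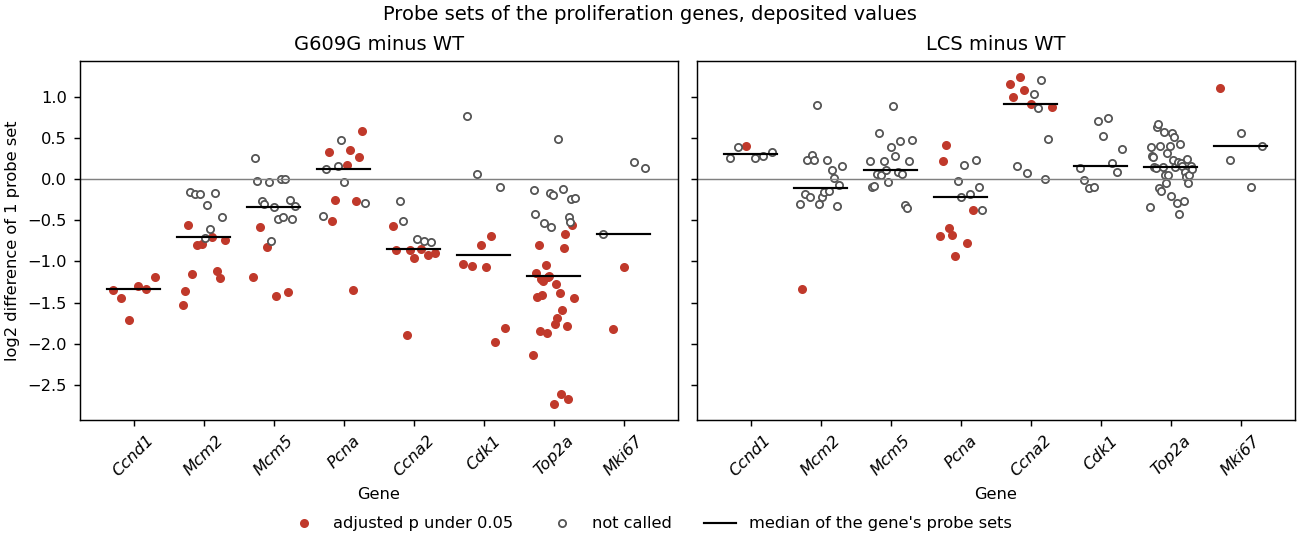
log2 difference of every probe set of the 8 proliferation genes in G609G minus WT (left) and LCS minus WT (right), deposited values; each point is a probe set, filled where its adjusted p is under 0.05, and black lines are the gene's median over probe sets. In G609G minus WT 67 of 123 probe sets were called lower and 5 higher, and in LCS minus WT 6 of the 10 filled points above 0 belong to Ccna2.

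Over all 8 genes together, 67 of the 123 probe sets were called lower and 5 higher in G609G minus WT, against 41.2% and 7.76% of all probe sets. The counts were 45 and 11 relative to the median gene, against 26.7% and 16.1%. Between LCS and WT 7 were called lower and 10 higher on either scale, against 5.44% and 5.71% of all probe sets as deposited (relative to the median gene, 5.67% and 5.81%). The direct comparison of G609G with LCS had 76 lower and 4 higher as deposited, against 41.7% and 8.9%, and 54 and 16 relative to the median gene, against 27.8% and 17.9%. The rises in that last count lay mostly in Pcna, with 13 of the 16.

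G609G and LCS were also compared directly. Of the 8 genes, 7 were lower in G609G than in LCS, as were 52.4% of all genes (14% were higher). Again 7 were lower with Pcna higher relative to the median gene, where 36.1% of genes were lower and 34.5% higher. Ccna2 differed most, by -1.76 (95% interval -1.97 to -1.54, adjusted p = 2.53e-08), then Ccnd1 by -1.63 (adjusted p = 2.24e-08), Top2a by -1.18 (adjusted p = 6.18e-07), Cdk1 by -1.15 (adjusted p = 4.16e-07) and Mki67 by -1.10 (adjusted p = 0.000617). Mcm2 (-0.57) and Mcm5 (-0.54) differed less as deposited. Relative to the median gene they were at -0.28 and -0.25, and relative to the median of genes passing the filter both lost the call (adjusted p = 0.374 and 0.563). For these 7 genes no G609G array reached the lowest LCS array, and for Pcna all G609G arrays lay above LCS, where 54.9% of all genes were separated downwards and 16% upwards, or 37.1% and 37% relative to the median gene. The comparisons with WT share the WT arrays, so their values stand side by side and are not independent.

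**Figure D3:**
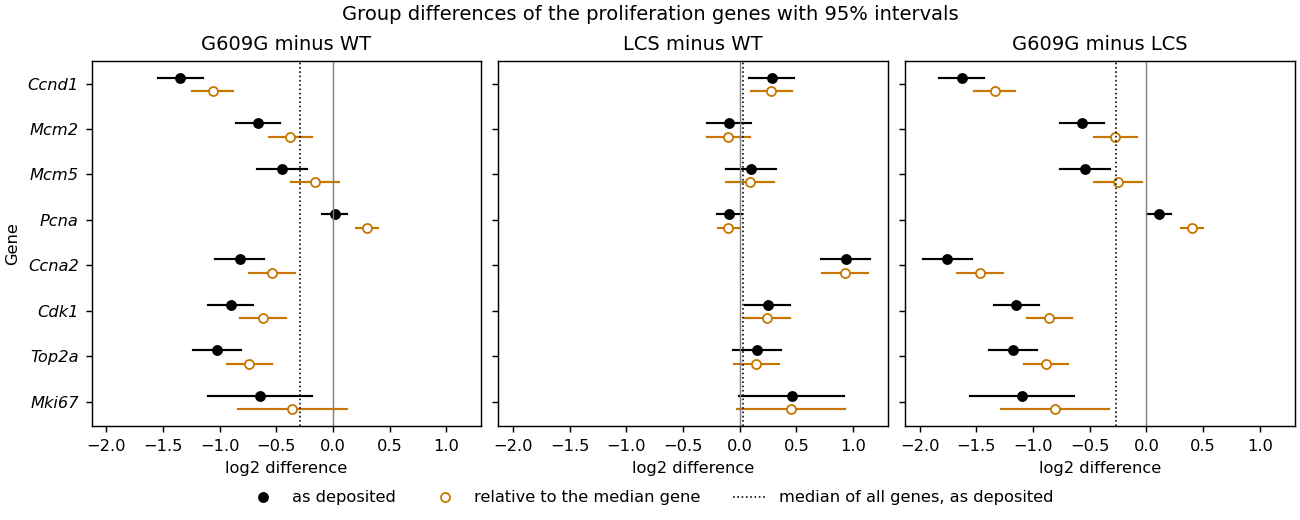
log2 difference of each proliferation gene in the 3 comparisons with its 95% interval from limma; filled points are deposited values, open points are values relative to the median gene, and the dotted line is the median of all genes as deposited. In both comparisons with G609G, 7 of 8 filled points lie below 0 with intervals that leave it out, and Pcna lies to the right of the rest.

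The order of levels was LCS, then WT, then G609G for Ccnd1, Mcm5, Ccna2, Cdk1, Top2a and Mki67, with WT and LCS apart by the test for Ccnd1 and Ccna2 alone. For Mcm2 WT was highest, without a called difference from LCS, and for Pcna the order was G609G, WT and LCS, with no called difference as deposited. Over the 9 arrays, set relative to the median gene, the genes with the pattern most like Mki67 among 11553 were Igsf11 (Pearson r = 0.97), Tspan32 (0.95), Trib2, Tmem125 and Aplnr (0.94 each), and 31 genes in all reached r above 0.9. Those most like Ccnd1 were Peak1, Igf2r, Stx2, Trim68 and Nisch, from r = 0.998 to 0.999, and 3173 genes passed 0.9. These correlations rest on 3 groups and describe the arrays only.

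The other genes of the cell cycle were taken from 6 lists with 130 different symbols, of which 121 were measured. In G609G minus WT 81 of the 121 were lower and 7 higher as deposited, against 47 lower and 21 higher relative to the median gene. These are 66.9% and 5.79% of the list genes as deposited, where 54.8% and 13% of all genes were lower and higher, and 38.8% and 17.4% relative to the median gene, where 36.4% and 32.3% of all genes were. The share lower was thus close to that of all genes on the second scale. The balance turned to 28 lower and 39 higher relative to the median of genes passing the filter, and was 34 and 23 after quantile normalization, so it rests on the scaling. Shares of all genes under these last scalings were not worked out. The counts under them, here and for single lists below, therefore have no background beside them. The list genes had a median log2 difference of -0.41 on the deposited scale and -0.13 relative to the median gene, against -0.29 and -0.01 for all genes. In the LCS comparison with WT 12 were lower and 12 higher, 9.92% each against 11.2% and 15.7% of all genes, with a median of 0.02. Leaving out 1 array moved these counts to between 6 and 14 lower and between 3 and 18 higher, with the fewest lower (6) without WT replicate 3 the fewest higher (3) without WT replicate 1 and the most higher (18) without G609G replicate 3. The counts higher were 5 without WT replicate 2, LCS replicate 1 or LCS replicate 3, and the counts lower were 7 without WT replicate 1 or LCS replicate 2.

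In the list for G1 and entry into S phase 12 of 15 measured genes were lower in G609G than in WT and 1 was higher. With the offset taken off they were 8 and 3, and again 8 and 3 under the scaling to genes passing the filter. The share lower, 80% and then 53.3% without the offset, was above that of all genes (54.8% and 36.4%). Rbl1 (p107, a retinoblastoma relative that is itself an E2F target) fell from 7.36 ± 0.17 to 5.98 ± 0.12 (SD, n = 3; adjusted p = 4.76e-07). The retinoblastoma gene Rb1 had a log2 difference of -1.06, cyclin D2 (Ccnd2) of -0.84 and the cyclin D partner Cdk4 of -0.70, and all 4 were also lower relative to the median gene. The gene that rose was the growth regulator Myc, by 0.71 (adjusted p = 0.000742), named after its value was seen. Against WT, in LCS, cyclins D3 (Ccnd3, 0.42, adjusted p = 0.0123) and D2 (0.16, adjusted p = 0.0259) were higher beside cyclin D1, and Cdk4 was lower (-0.14, adjusted p = 0.0447). These shares of the list, 13.3% higher and 6.67% lower, did not exceed those of all genes (15.7% and 11.2%). Leaving out 1 array moved the counts to between 0 and 3 higher and between 0 and 1 lower.

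Among cell cycle transcription factors and DREAM subunits 5 of 13 genes were lower and 2 higher in G609G minus WT. With the offset taken off they were 2 and 4, and relative to the genes passing the filter 1 and 8. The share lower, 38.5% and then 15.4% without the offset, was below that of all genes (54.8% and 36.4%). Foxm1, the activator of G2 and mitosis genes, fell from 5.57 ± 0.07 to 4.54 ± 0.06 (SD, n = 3; adjusted p = 2.32e-06), and differed by -0.74 relative to the median gene. Lin37, E2f5 and Tfdp1 differed by -0.49, -0.44 and -0.41 as deposited, and E2f5 and Tfdp1 did not pass relative to the median gene (adjusted p = 0.057 and 0.167). Lower in LCS than in WT were the chromatin-binding subunit Rbbp4 (-0.23) and E2f5 (-0.26), none was higher, and Foxm1 had a difference of -0.28 (adjusted p = 0.0528). The share lower was 15.4%, against 11.2% of all genes, and 30.8% relative to the median gene, against 12.3%. Of all genes 15.7% were higher as deposited. Leaving out 1 array gave 1 to 3 lower and 0 to 1 higher.

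The list for replication licensing and the fork had 20 of 35 genes lower and 3 higher in G609G minus WT, 10 and 9 relative to the median gene, and 7 and 15 relative to the genes passing the filter. Its share lower, 57.1% on the deposited scale and 28.6% on the scale relative to the median gene, was near or below that of all genes (54.8% and 36.4%). The GINS helicase cofactor Gins2 fell from 7.22 ± 0.17 to 5.70 ± 0.14 (SD, n = 3; adjusted p = 3.8e-07). The polymerase subunit Pole differed by -0.69, Gins4 by -0.66 and Rfc1, a subunit of the loader of the Pcna ring, by -0.87, and all were lower relative to the median gene too. Those that rose were Mcm7 (0.45, adjusted p = 0.00461), Orc6 (0.30) and Rpa2 (0.26), named after their values were seen. Pole (-0.36) and Rfc5 (-0.43) were lower in LCS than in WT and none was higher, and the flap nuclease Fen1 was at 0.30 (adjusted p = 0.0515). The share lower, 5.71%, was below the 11.2% of all genes, and 15.7% of all genes were higher. Leaving out 1 array gave 1 to 3 lower and 0 to 3 higher.

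All 9 measured genes of deoxynucleotide supply were lower in G609G than in WT. With the offset taken off 6 were, and relative to the genes passing the filter 3, with none higher on these scales. The share lower, 100% and then 66.7% without the offset, was above that of all genes (54.8% and 36.4%). Rrm2b, the p53-inducible subunit of ribonucleotide reductase, had a log2 difference of -0.85 (SE 0.08, adjusted p = 3.86e-06), thymidylate kinase (Dtymk) of -0.81, the dNTP hydrolase Samhd1 of -0.77 and the dUTPase Dut of -0.63. Thymidylate synthase (Tyms) was higher in LCS than in WT, at 0.38 (adjusted p = 0.00753), and the reductase subunit Rrm1 lower, at -0.29 (adjusted p = 0.034), while Samhd1 was at 0.19 (adjusted p = 0.0589). The shares higher and lower, 11.1% each, did not exceed those of all genes (15.7% and 11.2%). Leaving out 1 array gave 0 to 3 higher and 0 to 1 lower.

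In the mitosis list 32 of 43 genes were lower and none was higher in G609G minus WT, 20 and 4 relative to the median gene, and 9 and 11 relative to the genes passing the filter. The share lower was 74.4% as deposited, or 46.5% on the scale relative to the median gene, against 54.8% and 36.4% of all genes. Anln, a scaffold of the cleavage furrow, fell from 6.59 ± 0.13 to 5.51 ± 0.11 (SD, n = 3; adjusted p = 1.15e-06). The mitotic kinase Plk1 differed by -1.14, Cdca3 by -1.24 and the checkpoint kinase Bub1 by -0.89, and all were lower relative to the median gene too. Only 24 of the 43 passed the filter on low values, and Bub1 did not.

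Between LCS and WT the mitosis list went both ways, with 6 genes lower and 5 higher of 43. These shares, 14% and 11.6%, were near those of all genes (11.2% and 15.7%), and without single arrays the counts ran from 4 to 7 lower and from 1 to 5 higher, with 1 higher without WT replicate 1, WT replicate 2 or LCS replicate 1 and 2 without LCS replicate 2 or 3. Bub1 (-0.81, SE 0.08, adjusted p = 2.4e-05), the microtubule depolymerase Kif2c (-0.71, adjusted p = 0.00181) and Cdca3 (-0.59, adjusted p = 0.00239) had the lowest p. The other 3 that fell were Aurka (-0.53), Plk1 (-0.40) and Ccnb2 (-0.60), and those that rose were Ncaph (0.37), Ube2c (0.36), Tpx2 (0.30), Racgap1 (0.28) and Incenp (0.26), all but Plk1 named after their values were seen. None of the 5 rises was as large as the 0.93 of Ccna2.

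Among 6 measured CDK inhibitors, which hold the cycle back, Cdkn1a (p21) rose in both mutants: it was at 8.93 ± 0.02 in WT, 11.55 ± 0.10 in G609G and 10.09 ± 0.05 for LCS (SD over 3 arrays). Between G609G and WT 3 others were lower as deposited, Cdkn2c by -0.58, Cdkn2b by -0.54 and Cdkn1c by -0.45, and of these only Cdkn2c was lower relative to the median gene and none relative to the genes passing the filter, where 2 of the 6 inhibitors were higher. The share of inhibitors lower in G609G, 50% and then 16.7% without the offset, did not exceed that of all genes (54.8% and 36.4%). Against WT 4 of the 6 were higher in LCS, with Cdkn1c and Cdkn2c at 0.37 each, and none was lower. Of all genes 15.7% were higher and 11.2% lower there, or 16.6% and 12.3% relative to the median gene. The number higher was 3 relative to the genes passing the filter, 1 without WT replicate 1, and 2 without WT replicate 2 or 3 or without any single LCS replicate.

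**Figure D4:**
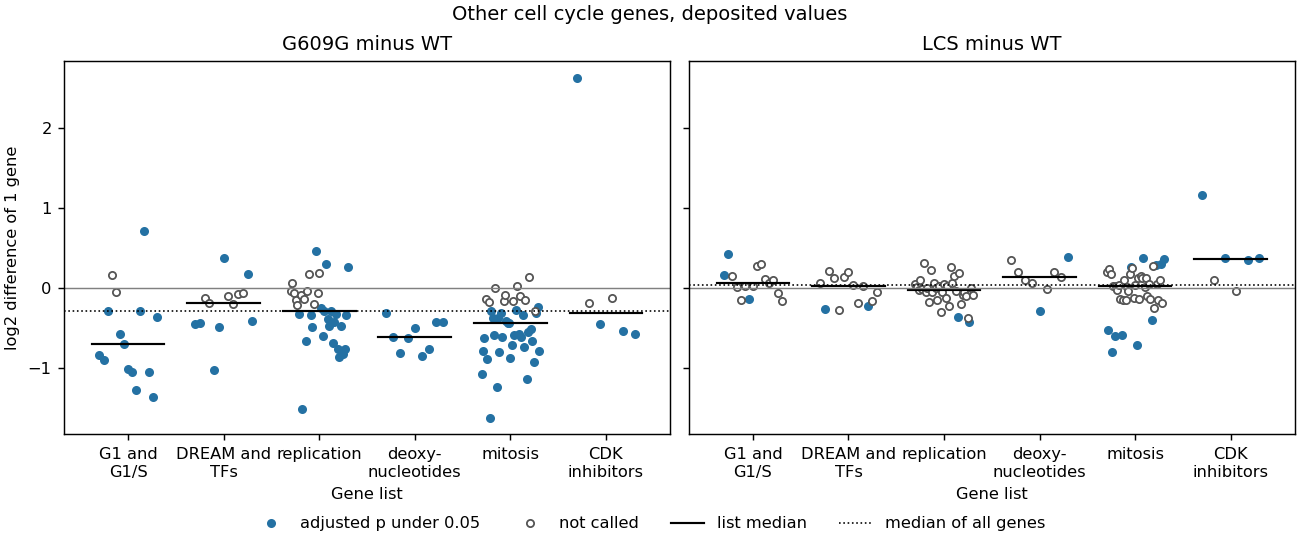
log2 difference of each measured gene of the 6 cell cycle lists in G609G minus WT (left) and LCS minus WT (right), deposited values; each point is a gene, filled where its adjusted p is under 0.05, short black lines are list medians and the dotted line is the median of all genes. In G609G minus WT the list medians run from -0.70 (G1 and G1/S) to -0.19 (DREAM and transcription factors), and in LCS minus WT they lie between -0.04 and 0.36.

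Markers of other cells are set beside the shares of all genes. Of all genes, 54.8% were lower in G609G than in WT, and 36.4% with the offset taken off. The lymphocyte and natural killer list, at 54.5% and then 36.4% lower, did not exceed these shares. Macrophage markers did, at 90.9% both times, as did progenitor and fibroblast markers, at 83.3% and then 66.7%. Endothelial markers, at 40% and then 20%, lay below them. Between G609G and WT 10 of 11 macrophage markers, 10 of 12 progenitor and fibroblast markers and 6 of 11 lymphocyte and natural killer markers were lower, with none higher, and 10, 8 and 4 were lower relative to the median gene, with 0, 1 and 2 higher. The macrophage markers summed to a log2 level of 13.05 to 13.14 in G609G against 13.90 to 13.92 in WT. Such sums are taken over linear values and lean on the brightest genes. The macrophage list includes Lpl, which is not confined to macrophages, so its sum is not a measure of these cells alone. The mean log2 value of the macrophage list was 8.19 to 8.47 in G609G against 9.26 to 9.32 in WT. The progenitor and fibroblast markers summed to 13.88 to 13.92 against 14.17 to 14.19. Of 10 endothelial markers 4 were lower and 4 higher as deposited, but 2 were lower and 7 higher relative to the median gene. All 11 skeletal muscle markers were higher and summed to 15.62 to 15.66 in G609G against 10.27 to 10.38 in WT. Epididymis markers summed to 14.24 to 14.29 against 16.07 to 16.13. All 11 markers of spermatids and sperm were lower in G609G, summing to 11.52 to 11.65 against 13.22 to 13.33 in WT, and so were 8 of 10 markers of spermatogonia and meiotic germ cells, at 7.55 to 7.59 against 8.50 to 8.60. On the scale relative to the median gene 11 and 5 of these germ cell markers were lower, with 0 and 2 higher. All 7 mesothelial and 11 of 12 mature adipocyte markers were lower as deposited. Relative to the median gene 6 and 8 were lower, with 0 and 4 higher. Germ cells transcribe mitosis genes too, and the part of these cells and tissues in the differences of the proliferation genes was not tested.

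Between LCS and WT 8 of 12 progenitor and fibroblast markers, 6 of 11 macrophage markers and 4 of 11 lymphocyte and natural killer markers were higher, where 15.7% of all genes were. The same held for 6 of 10 endothelial markers (1 was lower), 7 of 12 mature adipocyte markers, 4 of 7 mesothelial markers (2 were lower) and 4 of 11 skeletal muscle markers. The skeletal muscle markers summed to 11.32 to 11.36 in LCS against 10.27 to 10.38 in WT. Of 11 epididymis markers 5 were lower and 4 higher in LCS, where 11.2% and 15.7% of all genes were. They summed to 15.73 to 15.76 against 16.07 to 16.13, with a mean log2 value of 11.31 to 11.38 against 12.45 to 12.53. The lymphocyte and natural killer markers summed to 10.14 to 10.42 against 9.31 to 9.41 in WT, and 6 of the 11 lay under 4.86 in either group. All 11 markers of spermatids and sperm were lower in LCS, summing to 9.62 to 9.64 against 13.22 to 13.33, and 5 of 10 markers of spermatogonia and meiotic germ cells were lower, led by Ddx4 (4.15 against 6.76). The remaining 5 germ cell markers of that list were not called. The part of all these markers in the LCS differences, the lower Bub1, Kif2c and Cdca3 included, was not tested.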

How the data were processed

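Total RNA was fragmented and biotin-labelled with the WT Terminal Labeling Kit for exon arrays, as the labels' protocols state. Log2 values of 9 arrays, at probe set level, are what the authors deposited; their normalization method was not given in the sources used here and their log2 scale was read from the values. mm9 is the build in the submitters' processing notes. The design text speaks of 10 samples, of which 9 were analysed here. No 2 arrays shared over 1.89% of values.

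Probe sets with 1 symbol in the platform annotation (208397) entered a median polish of up to 10 rounds for each gene, without an intensity filter. Of 16299 symbols, 14132 were current and 2119 were updated through RefSeq synonyms (GRCm38.p6, names only). Genes and probe sets were tested over all 9 arrays with limma (lmFit, eBayes with a trend), with Benjamini-Hochberg adjustment over all features at a threshold of 0.05; all adjusted p come from it. The number of arrays limits precision. The filter named in the text keeps genes of 3 or more probe sets whose mean exceeds the 25th percentile of gene means.

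Members and lists were chosen with earlier results of these data known. Named genes are the members, Lmna, up to 4 genes per list with the lowest p in G609G minus WT and up to 3 in LCS minus WT, the 5 most like Mki67 and Ccnd1, and markers.

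Deviations of same-numbered WT and G609G arrays from their group means correlated at r = 0.15, 0.11 and 0.30, all positive but weak. Of the 9 arrays, 6 had their highest correlation with an array of their number. Whether the numbers pair the arrays is thus unsettled. The main tests used no block, and a replicate block was fitted as an alternative. In LCS minus WT r ran from -0.13 to 0.17.

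Alternatives covered scaling, summary, filter, variance model, arrays in the fit, replicate blocks, the methods' t-test and dropping single arrays; scaling to the genes passing the filter was added after seeing the data. Steps were tested on simulated data. Computation used Python 3.11.15, matplotlib 3.10.9, R 4.3.3, limma 3.58.1 and the data.table package (version 1.17.8).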

Additional observations from a re-analysis of the deposited data

How the results depend on the processing

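Calls in G609G depended on the scaling. Relative to the median gene, 47 cell cycle genes were lower and 21 higher in G609G minus WT, against LCS 50 and 27. The members called higher were 1 in each of these comparisons, and the probe sets called higher 11 and 16. Relative to the median of genes passing the filter, chosen after seeing the data, the cell cycle counts were 28 and 39 for G609G against WT, 32 and 46 against LCS, and 19 lower in LCS minus WT. A single member was higher in both comparisons with G609G (1 each), and 1 was lower in LCS minus WT. The probe sets were 32 lower and 15 higher for G609G against WT, and 45 and 19 against LCS. Quantile normalization gave cell cycle counts of 34 and 23 for G609G against WT and 39 and 24 against LCS. It gave 1 member higher in both and 1 lower in LCS minus WT, with 37 probe sets lower and 11 higher in G609G minus WT and 17 higher in G609G minus LCS.

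A plain mean of probe sets called 1 member lower in LCS minus WT and 1 higher in G609G minus LCS, and probe sets above the 25th percentile called 1 lower in LCS minus WT. With only the 6 arrays compared, 4 members were higher in LCS minus WT, against 1 at a fold of 1.5 or more, 1 by the methods' t-test with that fold and 1 after its Benjamini-Hochberg adjustment. The cause of these changes was not tested.

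Leaving out single arrays gave 1 to 3 members higher and 0 to 1 lower in LCS minus WT, and 0 to 1 higher in G609G minus LCS. The cell cycle counts in LCS minus WT ran from 6 to 14 lower and from 3 to 18 higher. Probe sets called higher ran from 0 to 6 in G609G minus WT and from 4 to 12 in LCS minus WT. Without WT replicate 1, 2 or LCS replicate 1 or 3 the cell cycle genes higher in LCS were 3, 5, 5 and 5.

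Without single arrays the Pcna difference in G609G minus WT ran from -0.076 to 0.029. It changed sign with a plain mean (-0.046), with probe sets above the 25th percentile (-0.17), without WT replicate 2 (-0.03), G609G replicate 2 (-0.03) or 3 (-0.076), and without LCS replicate 1 (-0.01) or 3 (-0.03). Mcm5 was at 0.0021 relative to the genes passing the filter. Ccnd1, Mcm2, Ccna2, Cdk1 and Top2a kept their call in G609G minus WT under every alternative that gave them a value. Top2a and Mki67 had no value where the filter removed them. Ccna2 and Cdk1 passed the filter on low values through WT and LCS, being under 4.86 in G609G.

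With the replicate block, over 9 arrays or over the 6 compared, 7 members were lower in G609G than in WT. The block over 9 arrays gave 83 cell cycle genes lower and 7 higher in that comparison. For LCS against WT, where the correlations of same-numbered arrays took both signs, the block over 6 arrays called Mki67 (0.46, adjusted p = 0.0126), and 3 members were higher. With 3 arrays a group and 5 probe sets under the filter, Mki67 had the largest SE of the members (0.21).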
